A study of Mus musculus with 16 samples.

Results

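The vascular endothelial growth factor (VEGF) family was followed through 16 RNA sequencing libraries by its 4 ligands Vegfa, Vegfb, Vegfc and Pgf, its 3 receptors Flt1, Kdr and Flt4 and its 2 co-receptors Nrp1 and Nrp2. These 9 genes were taken by symbol from a table of 23999 symbols, and all 9 passed the count filter that left 14730 genes for testing. The libraries came from mice with acute myeloid leukaemia driven by the NPM1cA mutation, sampled as myeloid sarcomas, which are solid tumours of leukaemia cells outside the marrow, or as whole bone marrow infiltrated by the leukaemia. Sarcomas of 4 mice with heterozygous SMC3 (NPM1cA/SMC3+/-) were compared with marrows of 9 mice of that genotype. The sarcoma of mouse 841, whose title names NPM1cA alone and which was taken as wild type for SMC3, was set beside them. Mice 948 and 2721 gave 2 tumours each, mice 1267 and 2721 gave both tissues, and all groups carried NPM1cA. The label 1268_1270 may name 1 mouse or a pool and was treated as 1 mouse. The labels name neither age, sex or strain nor the promoter or recombinase behind each allele.

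VEGF ligands are secreted dimers that bind receptor tyrosine kinases on endothelial cells. VEGF-A acts chiefly through KDR (VEGFR2), the main driver of blood vessel growth, while FLT1 (VEGFR1) binds VEGF-A, VEGF-B and placental growth factor tightly, signals weakly and is also made as a soluble decoy and by monocytes and macrophages. FLT4 (VEGFR3), the receptor of VEGF-C, serves lymphatic vessels and sprouting blood vessels, and the neuropilins NRP1 and NRP2 hold ligands for these receptors and also bind class 3 semaphorins. In marrow the sinusoidal vessels are known for KDR and FLT4, and low oxygen raises Vegfa through hypoxia-inducible factors (HIF).

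Totals ranged from 9797201 to 39197660 counts a library, and levels are given as CPM, counts scaled to 1000000 a library, on totals scaled by the trimmed mean of M-values (TMM). Transcripts longer than 6 kb lay low in marrows 737, 779 and 782, with median log2 deviations of -2.03, -2.06 and -1.88 from the median library. The deviation was -0.72 in marrow 1267, -0.51 in tumour 1 of mouse 948 and -0.05 to 0.41 in the others. The markers of leukocytes, summed over 10 genes, gave 6830 to 13000 CPM in marrow and 5170 to 10200 CPM in 3 sarcoma mice but 622 CPM in sarcoma 1268_1270. In that tumour 8 adipocyte markers summed to 42300 CPM, against 253 to 636 CPM in the other 3 and 41.4 to 99.0 CPM in marrow. Sarcoma 1268_1270 thus stood apart before any VEGF gene was read, and results that rest on it are given with and without it.

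**Figure D1:**
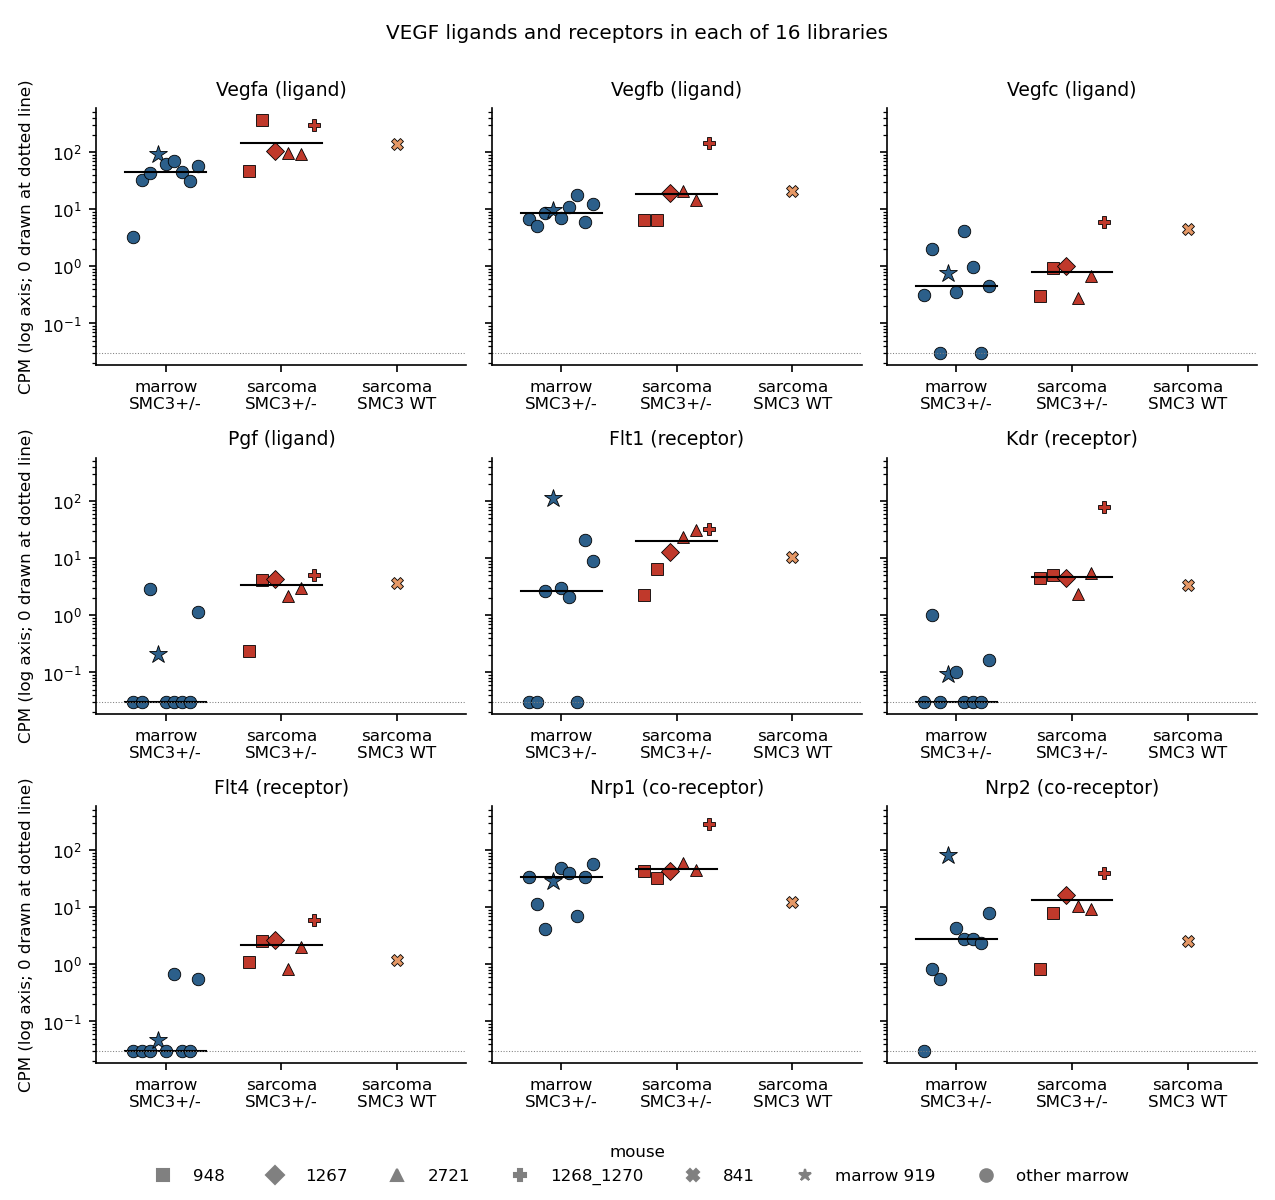
Level of each VEGF gene in each library, in CPM on a log axis with values of 0 drawn at the dotted line; blue points are SMC3+/- marrows, red points SMC3+/- sarcoma libraries and the orange cross mouse 841, symbols mark the mouse, and black lines are medians over mice. Kdr in sarcoma 1268_1270 lies at 78.1 CPM, far above 3.90 to 4.74 CPM in the other 3 mice, and the stars for Flt1 and Nrp2 in marrow 919 lie at 116 and 80.9 CPM.

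Vegfa, the main ligand of blood vessel growth, was the most abundant member for its length in both tissues. Its level was 184.5 CPM in the sarcomas of mouse 948, 104 CPM in mouse 1267, 94.0 CPM in mouse 2721 and 302 CPM in 1268_1270. The marrows ran from 3.27 CPM in mouse 737 through a median of 44.2 CPM to 92.0 CPM in mouse 919. All 4 sarcoma mice therefore lay above all 9 marrows, the lowest of them by a narrow margin, while tumour 1 of mouse 948 taken alone had 46.9 CPM, inside the marrow range. The means were 171 ± 96.4 CPM (SD, n = 4) and 48.4 ± 25.9 CPM (SD, n = 9), a log2 difference of 1.75 ± 0.54 (SE) that did not pass edgeR's quasi-likelihood test with Benjamini-Hochberg adjustment over all genes (adjusted p = 0.0961). It passed without marrow 737, one of the marrows low in long transcripts (adjusted p = 0.0289), and fell to 1.25 without sarcoma 1268_1270 (adjusted p = 0.716).

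Vegfb, a ligand of FLT1 made chiefly in heart, muscle and fat, was highest in 1 tumour by far. It had 145 CPM in sarcoma 1268_1270, 19.6 CPM in mouse 1267, 17.8 CPM in mouse 2721 and 6.45 CPM in mouse 948. Marrow values ran from 5.07 CPM in mouse 779 through 8.51 CPM to 18.0 CPM in mouse 1267. The groups overlapped, with 2 of 4 sarcomas above every marrow and mouse 948 below the marrow median. The log2 difference of 2.29 ± 0.63 lay just short of the threshold (edgeR adjusted p = 0.0535), and DESeq2 called it (adjusted p = 0.0181). Without sarcoma 1268_1270 it was 0.48 (edgeR adjusted p = 1). The part that the adipocyte signal of that tumour has in the Vegfb level was not tested.

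Pgf, placental growth factor, binds only FLT1 among the 3 receptors and was low throughout. The sarcomas had 5.15 CPM in 1268_1270, 4.27 CPM in mouse 1267, 2.60 CPM in mouse 2721 and 1.95 CPM in mouse 948. It had no count in 6 of 9 marrows, where a count of 0 allows up to 3 counts, or 0.0951 to 0.276 CPM in these 6, and 2.95, 1.15 and 0.213 CPM in marrows 782, 3332 and 919. These intervals and floors cover counting error only. Marrow 782 alone reached into the sarcoma range. The log2 difference was 2.76 ± 1.57 (edgeR adjusted p = 0.527) and 4.25 without that marrow (edgeR adjusted p = 0.164), while limma-voom called it (adjusted p = 0.00894).

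Vegfc, the main ligand of FLT4, was low in both tissues. It had 6.01 CPM in sarcoma 1268_1270 and 1.03, 0.580 and 0.473 CPM in mice 1267, 948 and 2721. Marrow ran from 0 in mice 782 and 2721 through a median of 0.461 CPM to 4.22 CPM in mouse 1103, which held 57.3% of all marrow counts of the gene. The groups overlapped almost fully. The log2 difference of 0.94 ± 1.28 (edgeR adjusted p = 0.909) turned to -0.72 without sarcoma 1268_1270.

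Kdr was the 1 member of 9 called between the tissues, where 662 of 14730 genes, or 4.49%, were called higher and 8 lower. Its level was 78.1 CPM in sarcoma 1268_1270, 4.74 CPM in mouse 948, 4.50 CPM in mouse 1267 and 3.90 CPM in mouse 2721. Marrow held 22 Kdr counts in all, 11 of them in mouse 779, with 1.01, 0.165, 0.100 and 0.0945 CPM in mice 779, 3332, 949 and 919 and no count in the other 5. Every sarcoma, and each of the 6 SMC3+/- tumour libraries at 2.38 CPM or more, lay above every marrow. Kdr was higher in sarcomas by 7.35 ± 1.40 on the log2 scale (edgeR adjusted p = 0.00708), with means of 22.8 ± 36.9 CPM (SD, n = 4) and 0.153 ± 0.329 CPM (SD, n = 9). Sarcoma 1268_1270 held 78.9% of the sarcoma counts. Without it the mean was 4.38 ± 0.435 CPM (SD, n = 3) and the difference 4.76, in the same direction but not called (adjusted p = 0.218). With the mouse as a block the difference was 9.67 and not called (adjusted p = 0.149), with mice 1267 and 2721 alone informing that fit. Without marrow 779 it was 8.75 (adjusted p = 0.00275). Marrows 737, 782 and 1267, low in long transcripts, were among the 5 without a Kdr count. The longest annotated Kdr transcript has 5.92 kb, and the part of this deficit in the Kdr zeros was not tested. The difference was 8.37 without marrows 737, 779 and 782 and tumour 1 of mouse 948 (edgeR adjusted p = 0.0144). DESeq2 gave Kdr no adjusted p.

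Flt4, the lymphatic receptor, separated the tissues at a lower level. It had 5.96 CPM in sarcoma 1268_1270, 2.67 CPM in mouse 1267, 1.74 CPM in mouse 948 and 1.39 CPM in mouse 2721. Marrow had 0.666 CPM in mouse 1103, 0.559 CPM in mouse 3332, 0.0473 CPM in mouse 919 and no count in the other 6. No marrow reached the lowest sarcoma. The log2 difference of 4.21 ± 1.40 did not pass edgeR's test (adjusted p = 0.128) and was called by limma-voom (adjusted p = 0.00232). It was 3.53 without sarcoma 1268_1270 (edgeR adjusted p = 0.664). Without marrows 737, 779 and 782 and tumour 1 of mouse 948 it was 3.74 (edgeR adjusted p = 0.266). The marrows lowest in long transcripts, 737, 779, 782 and 1267, were all among the 6 without a Flt4 count. The longest annotated Flt4 transcript has 6.26 kb, and the part of this deficit in the Flt4 zeros was not tested. The groups did not overlap for 3 of the 9 members, Vegfa, Kdr and Flt4, all higher in sarcomas, against 690 of 14730 genes, or 4.68%, higher without overlap.

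Flt1, the receptor with a known decoy role, had its highest value in a marrow. The sarcomas had 32.2 CPM in 1268_1270, 26.9 CPM in mouse 2721, 13.1 CPM in mouse 1267 and 4.13 CPM in mouse 948. The marrows ran from 0 in mice 737, 779 and 1267 through a median of 2.67 CPM to 20.7 CPM in mouse 2721 and 116 CPM in mouse 919. Marrow 919 lay above every tumour and held 83.0% of the marrow counts. The log2 difference was 0.20 ± 1.54 (edgeR adjusted p = 0.996) and 2.02 without marrow 919 (adjusted p = 0.664), and it turned to -0.24 without sarcoma 1268_1270. It turned to -0.37 without marrows 737, 779 and 782 and tumour 1 of mouse 948, 4 libraries taken from an earlier analysis of these data, and to -0.63 without marrow 1267 as well, which lay lower in long transcripts than that tumour. The 3 marrows without a Flt1 count, 737, 779 and 1267, were among the 4 marrows lowest in long transcripts, and the longest annotated Flt1 transcript has 6.90 kb. The part of this deficit in the Flt1 zeros was not tested. Gene counts do not tell the soluble from the membrane form.

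In a bulk sample, fewer cells of a type and less RNA per cell cannot be told apart, and some endothelial genes moved with Kdr. Of 16 blood endothelium genes tested 6 were called higher, 0 lower and 10 not called, beside 4.49% of all genes called higher. The median log2 difference of the 16 was 4.97, against 0.07 over all genes tested. Their summed level was 854 CPM in sarcoma 1268_1270, 160 to 268 CPM in the other 3 and 34.5 to 237 CPM in marrow. Tek, the angiopoietin receptor, had 41.5 CPM in sarcoma 1268_1270 and 1.77 to 4.76 CPM in the other 3, and rose by 7.05 ± 1.38 (edgeR adjusted p = 0.00831). Cldn5, a tight junction protein of endothelium, rose by 7.80 ± 1.40 (edgeR adjusted p = 0.00521), Esam, an endothelial adhesion molecule, by 7.40 ± 1.20 (adjusted p = 0.00262) and the receptor gene Gpr116 by 7.41 ± 1.39 (adjusted p = 0.00656). Some other genes of the list also lay higher in every SMC3+/- sarcoma mouse than in any marrow. Emcn had at least 2.08 CPM against up to 1.1 CPM in marrow, Ramp2 at least 1.49 against up to 0.55 CPM and Vwf at least 14.4 against up to 12.3 CPM. Erg, Pecam1 and Egfl7 were among those that did not separate the tissues. Erg had 1.87 to 21.2 CPM in the sarcomas, against up to 69.7 CPM in marrow. Pecam1 had 153 CPM in mouse 948 and 29.1 to 115 CPM in the other sarcomas, against up to 125 CPM in marrow. Egfl7 had 47.0 CPM in 1268_1270 and 17.9 to 21.9 CPM in the other 3, against up to 22.1 CPM in marrow. Without sarcoma 1268_1270, 1 of the 16 was called, and 2 with the mouse as a block. Without marrows 737, 779 and 782 and tumour 1 of mouse 948, 2 of 14 genes tested were called, and 1 of 14 without marrow 1267 as well. Relative to Cdh5, the endothelial cadherin, Kdr was uneven: the log2 ratio of their counts, not corrected for length, was -0.11 and 2.24 in the 2 tumours of mouse 948, -1.60 in mouse 1267, -2.27 and -1.50 in mouse 2721, -0.34 in 1268_1270 and -2.68 in mouse 841. The part of endothelial content in the Kdr call was not tested.

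Of the lymphatic endothelium list, 1 of 4 genes tested was called, Pdpn, a glycoprotein that fibroblasts also make (5.76 ± 1.23, edgeR adjusted p = 0.0142), and none of the 4 without sarcoma 1268_1270 or with the mouse as a block. The list summed to 14.9 to 58.3 CPM in the sarcomas and to 0 to 15.6 CPM, with a median of 0.692 CPM, in marrow, and its median log2 difference was 3.51. The defining lymphatic factor Prox1 stayed at 0 to 0.226 CPM in the sarcomas and Ccl21a had no count in any library, so it tells nothing of either tissue. Mmrn1, an endothelial matrix protein found in lymphatic vessels, had 9.45 CPM in mouse 948, 2.12 CPM in 1268_1270, 1.06 CPM in mouse 2721 and no count in mouse 1267. Lyve1, a hyaluronan receptor of lymphatic vessels and of some macrophages, had 21.5 CPM in mouse 948, 14.1 CPM in 1268_1270, 7.11 CPM in mouse 2721 and 1.69 CPM in mouse 1267. The part of lymphatic content in the Flt4 level was not tested.

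**Figure D2:**
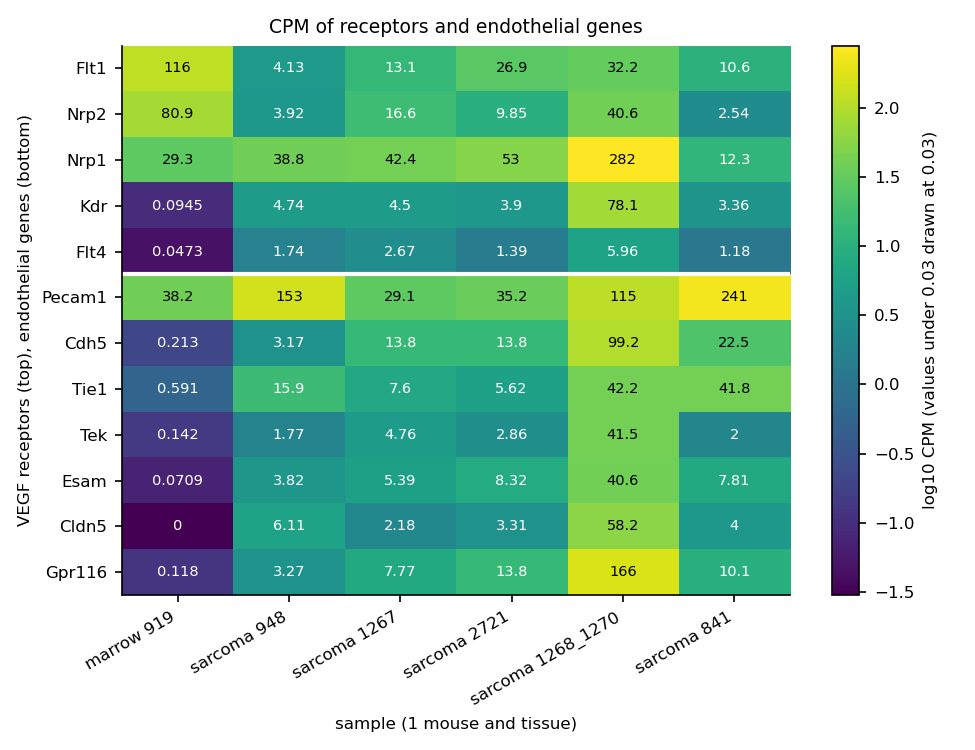
CPM of the 5 receptors and co-receptors (top) and 7 endothelial genes (bottom) in marrow 919 and the 5 sarcoma mice, with the value printed in each cell and the colour showing log10 CPM. Marrow 919 has 116 CPM of Flt1 and 80.9 CPM of Nrp2. Beside these it has 0.0945 CPM of Kdr, 0.213 CPM of Cdh5 and no count of Cldn5. Sarcoma 1268_1270 has 99.2 CPM of Cdh5 and 58.2 CPM of Cldn5.

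Nrp1, co-receptor of VEGF-A and a semaphorin receptor, was well measured in both tissues. It had 282 CPM in sarcoma 1268_1270, 53.0 CPM in mouse 2721, 42.4 CPM in mouse 1267 and 38.8 CPM in mouse 948. Marrow ran from 4.22 CPM in mouse 782 through 33.6 CPM to 57.4 CPM in mouse 3332. The last 3 sarcomas lay inside the marrow range and above its median. The log2 difference of 1.79 ± 0.66 did not pass (edgeR adjusted p = 0.179) and was 0.47 without sarcoma 1268_1270 (adjusted p = 1).

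Nrp2, co-receptor of VEGF-C, had the same 2 samples at its top as Flt1. The sarcomas had 40.6 CPM in 1268_1270, 16.6 CPM in mouse 1267, 9.85 CPM in mouse 2721 and 3.92 CPM in mouse 948. The marrows ran from 0 in mouse 737 through 2.82 CPM to 7.96 CPM in mouse 3332 and 80.9 CPM in mouse 919. Marrows 779 and 782, low in long transcripts like 737, had 0.829 and 0.563 CPM. The longest annotated Nrp2 transcript has 6.72 kb, and the part of this deficit in the Nrp2 levels was not tested. Without marrow 919 the marrow mean was 2.72 ± 2.56 CPM (SD, n = 8). The log2 difference was 0.70 ± 1.27 (edgeR adjusted p = 0.949), 2.69 without marrow 919 (adjusted p = 0.176) and -0.21 without sarcoma 1268_1270.

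Marrow 919 carried Flt1 at 5.59 times and Nrp2 at 10.2 times the highest other marrow. As large a ratio was found in 53 genes, or 0.36% of those tested, for Flt1 and in 24 genes, or 0.163%, for Nrp2. The blood endothelium genes did not stand out there. Cdh5 had 0.213 CPM, Tek 0.142 CPM, and Cldn5, Emcn, Sox17 and Sox18 had no count, so 4 of 17 blood endothelium genes were at 0 and the list summed to 78.6 CPM, the median of the marrows. The monocyte and macrophage list summed to 2720 CPM, the lowest of the 9 marrows, the neutrophil list to 49800 CPM, their median, and the platelet list to 67.2 CPM within 4.79 to 87.1 CPM. High Flt1 and Nrp2 in this marrow were therefore measured beside blood endothelium and monocyte lists that were not high. The lymphatic list summed to 5.55 CPM, second to the 15.6 CPM of marrow 949. Prox1 at 1.13 CPM and Mmrn1 at 1.58 CPM were higher than in the other 8 marrows, which reached 0.634 and 1.15 CPM. The rest of the list did not stand out there. Lyve1 had 1.02 CPM, Pdpn 0.732 CPM and Reln 1.09 CPM, while the other 8 marrows reached 2.50, 1.35 and 10.3 CPM. Ccl21a had no count. The part of lymphatic content in its Flt1 and Nrp2 levels was not tested. Marrow 919 was also the deepest library, with 39197660 counts.

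The promoter windows of the 3 receptor genes are shown because marrow 919 held Flt1 at 116 CPM beside 0.0945 CPM of Kdr and 0.0473 CPM of Flt4. They are RefSeq sequence of the GRCm38.p6 build, 250 bases before to 50 bases after the start of each gene, written in the direction of transcription, and GGAA or its complement TTCC, the core bound by ETS factors of endothelial and myeloid cells, is in capitals. The Kdr window lies at chr5:75978406-75978705 on the minus strand, the Flt1 window at chr5:147725962-147726261 on the minus strand and the Flt4 window at chr11:49609429-49609728 on the plus strand.
Kdr: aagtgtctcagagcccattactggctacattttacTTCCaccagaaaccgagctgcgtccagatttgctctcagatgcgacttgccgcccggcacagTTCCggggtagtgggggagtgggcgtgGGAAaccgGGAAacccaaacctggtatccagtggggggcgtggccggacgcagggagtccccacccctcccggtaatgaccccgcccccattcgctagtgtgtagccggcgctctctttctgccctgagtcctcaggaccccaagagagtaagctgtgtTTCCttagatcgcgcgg
Flt1: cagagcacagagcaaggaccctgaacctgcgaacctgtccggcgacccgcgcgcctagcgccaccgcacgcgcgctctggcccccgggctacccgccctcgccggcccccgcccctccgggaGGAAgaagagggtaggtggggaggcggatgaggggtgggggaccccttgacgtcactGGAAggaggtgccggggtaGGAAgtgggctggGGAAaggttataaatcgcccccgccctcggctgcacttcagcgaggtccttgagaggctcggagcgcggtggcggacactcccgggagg
Flt4: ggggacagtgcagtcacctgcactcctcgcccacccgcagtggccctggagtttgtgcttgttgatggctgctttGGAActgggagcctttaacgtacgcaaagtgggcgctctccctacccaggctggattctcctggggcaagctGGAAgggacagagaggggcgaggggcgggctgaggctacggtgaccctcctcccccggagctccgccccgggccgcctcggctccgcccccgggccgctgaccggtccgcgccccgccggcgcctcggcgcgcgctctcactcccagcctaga
GGAA on either strand occurred 5 times in the Kdr window, 4 times in that of Flt1 and 2 times in that of Flt4. Of 32851 windows of this length, 28.6% held at least 5 and 46.3% at least 4, so these counts are common. The Flt1 window also held 1 TGACGTCA, the full cyclic AMP response element, found on either strand in 1.79% of windows, and 1 TATAAA, found in 13.6%. Neither occurred in the Kdr or Flt4 window. All 9 genes matched the table, with 11 windows in all, and a match is a description of letters, not of a site in use. The core of the HIF element, ACGTG or GCGTG on either strand, was in 43.8% of windows and occurred 2 times in the Kdr window, 1 time in that of Flt1 and in neither strand of that of Flt4.

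**Figure D3:**
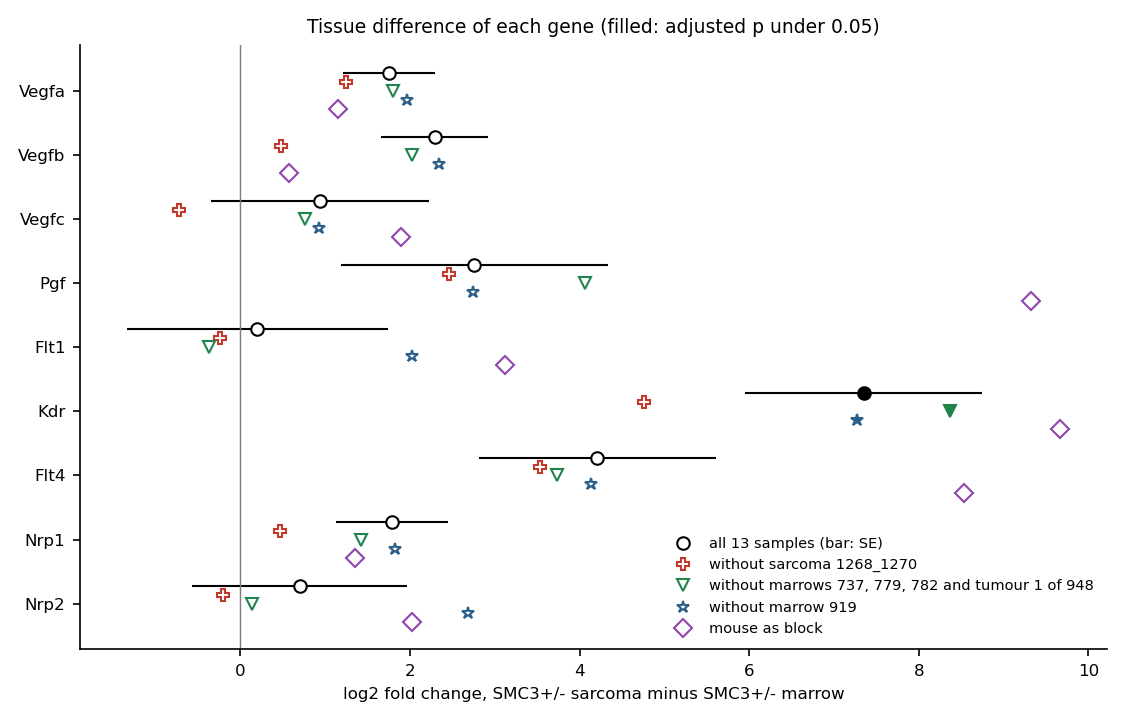
Log2 difference of each gene, SMC3+/- sarcoma minus SMC3+/- marrow, with all 13 samples (black, bar for the SE) and under 4 other choices of samples or fit; filled symbols have an adjusted p under 0.05. Kdr is filled with all samples, without marrow 919 and without marrows 737, 779 and 782 and tumour 1 of mouse 948, and open at 4.76 without sarcoma 1268_1270 and at 9.67 with the mouse as a block.

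Levels of different genes were compared per kb of merged exons. In sarcomas the order by mean was Vegfa (40.0 ± 22.5 CPM per kb, SD, n = 4), Vegfb (29.4 ± 40.8), Nrp1 (10.7 ± 12.2), Kdr (2.53 ± 4.08), Nrp2 (1.50 ± 1.36), Flt1 (1.41 ± 0.949), Pgf (1.20 ± 0.509), Vegfc (0.826 ± 1.09) and Flt4 (0.357 ± 0.253). No pair of neighbours in this order differed by more than the larger of their SDs. Kdr was 4th by its mean and 7th by its median of 0.512 CPM per kb, the distance coming from sarcoma 1268_1270. In marrow Vegfa (11.3 ± 6.03 CPM per kb, SD, n = 9), Vegfb (5.82 ± 2.51) and Nrp1 (3.01 ± 1.89) again led, and Flt4 (0.0172 ± 0.0327) and Kdr (0.0169 ± 0.0364) came last.

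Within each sarcoma mouse, with the 2 tumours of mice 948 and 2721 summed, the ligands outnumbered the kinase receptors. The values of mouse 948 join unlike tumours, with Vegfa at 10.96 CPM per kb in tumour 1 and 84.8 CPM per kb in tumour 2. Summed per kb, ligands had 48.0, 38.4, 34.1 and 165 CPM per kb in mice 948, 1267, 2721 and 1268_1270, and the 3 receptors 1.04, 1.80, 2.59 and 11.8 CPM per kb. Vegfa made up 89.7%, 63.3%, 64.3% and 42.7% of the ligand level in that order, and in 1268_1270 Vegfb, at 54.7%, was ahead of it. The leading receptor also changed from mouse to mouse. Kdr made up 73.5% of the receptor level in 1268_1270 and 50.4% in mouse 948, whereas Flt1 led in mouse 1267 with 54.2% and in mouse 2721 with 76.8%. Over the 7 marrows with receptor counts Flt1 had a median share of 95.3%. Marrows 737 and 1267 had no receptor count, and the 11 in marrow 779 were all of Kdr.

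The ratio of Vegfa to Kdr, per kb on the log2 scale with a prior of 2 counts, was 6.34 in mouse 948, 5.59 in mouse 1267, 5.65 in mouse 2721 and 3.03 in 1268_1270. Its mean was 5.15 ± 1.46 (SD, n = 4), and marrow ran from 5.50 to 11.21. Both of these ends are among the 5 marrows without a Kdr count, whose ratios rest on the prior. With tumours of 1 mouse summed, Vegfa therefore exceeded Kdr by 8.16-fold to 80.8-fold in the sarcomas, by least in the mouse with the most Kdr. Taken alone, tumours 1 and 2 had log2 ratios of 4.42 and 7.21 in mouse 948 and of 6.34 and 5.12 in mouse 2721. Vegfa to Flt1 was 7.11, 4.64, 3.46 and 4.88 in mice 948, 1267, 2721 and 1268_1270. These values lay within the marrow range of 1.33 in mouse 919 to 10.41 in mouse 1267, the latter with no Flt1 count and so resting on the prior. Vegfa to Nrp1 was 2.31 ± 0.90 (SD, n = 4) and 1.19 with the longest transcript as the length. Vegfb to Flt1 was 3.77 ± 1.13 (SD, n = 4), and -0.51 in marrow 919. These 3 ratios were above 0 in all 4 sarcoma mice.

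Pgf and Flt1 were near parity in the sarcomas, with a log2 ratio of 0.06 ± 1.02 (SD, n = 4). Vegfc to Flt4 was 0.27, 0.43 and 0.28 in mice 948, 1267 and 2721 and 1.76 in 1268_1270, while the 9 marrows had 1.50 to 5.33. With Flt4 at few or no counts in marrow, these marrow ratios rest on the prior. Vegfc to Nrp2 was negative in all 4 sarcoma mice, from -1.98 in mouse 2721 to -0.35 in mouse 948. The tumours of mouse 948 taken alone differed in sign, with 1.08 in tumour 1, from 5 Vegfc and 14 Nrp2 counts, and -0.61 in tumour 2.

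**Figure D4:**
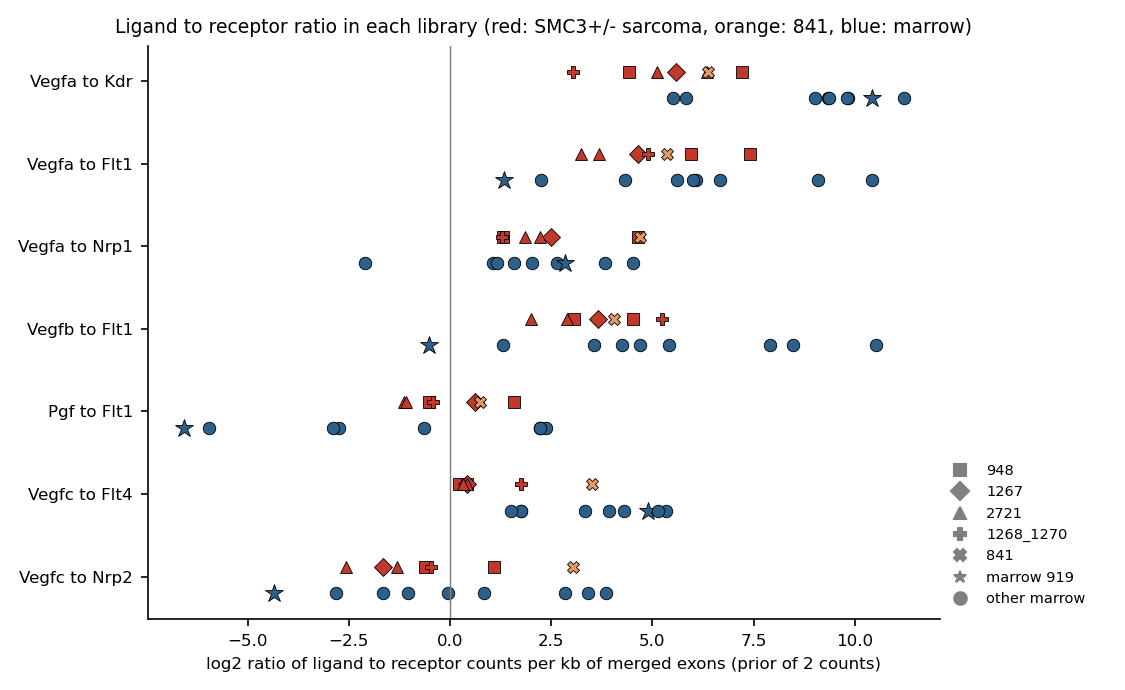
Log2 ratio of ligand to receptor counts per kb of merged exons in each library, for 7 pairs; red symbols are SMC3+/- tumours, orange crosses mouse 841 and blue symbols marrows. Vegfa exceeds Kdr, Flt1 and, in all libraries but marrow 737, Nrp1, while Pgf to Flt1 and Vegfc to Nrp2 scatter around 0, with marrow 919 lowest at -6.58 and -4.34.

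The 2 tumours of mouse 948 differed in Vegfa by a larger ratio than the means of the groups. Tumour 1 had 46.9 CPM and tumour 2 had 363 CPM, a 7.73-fold difference from 778 and 4629 counts. Pgf had 0.241 and 4.16 CPM, Nrp2 0.845 and 7.93 CPM, and Flt1 2.29 and 6.52 CPM. Vegfb (6.46 and 6.44 CPM) and Kdr (4.53 and 5.02 CPM) were close. With 1 library a tumour there is no test. Of the 9 members 6 were at least 2-fold higher in tumour 2, beside 29.2% of all 14730 genes, and 7.87% of genes were higher by as much as Vegfa. In mouse 2721 Vegfa had 95.1 and 92.8 CPM, and Vegfc, Kdr and Flt4, at 6 to 113 counts, were at least 2-fold higher in tumour 2, beside 5.84% of all genes.

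HIF pathway genes also differed between the tumours of mouse 948. Of 17 listed, 10 were at least 2-fold higher and 1 lower in tumour 2, beside 29.2% of all genes at least 2-fold higher. Their median was 1.35, against -0.03 over all genes. Slc2a1, the glucose transporter GLUT1, had 76.1 and 574 CPM, Ankrd37, a HIF target, 14.2 and 83.9 CPM, and Egln3, an oxygen-sensing hydroxylase, 107 and 417 CPM. The glycolytic genes Pgk1 (676 and 429 CPM) and Ldha (2052 and 1654 CPM) did not share the direction. In mouse 2721, 0 of 17 differed 2-fold, beside 5.84% of all genes at least 2-fold higher in tumour 2. With a share that small, 0 of 17 decides little. Other contents differed too: skeletal muscle markers summed to 3130 CPM in tumour 1 and 15.5 CPM in tumour 2, adipocyte markers to 1050 and 102 CPM, neutrophil markers to 138000 and 22600 CPM and fibroblast markers to 309 and 800 CPM. The part of these contents, and of the long-transcript deviations of -0.51 and 0.30, in the Vegfa difference was not tested.

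**Figure D5:**
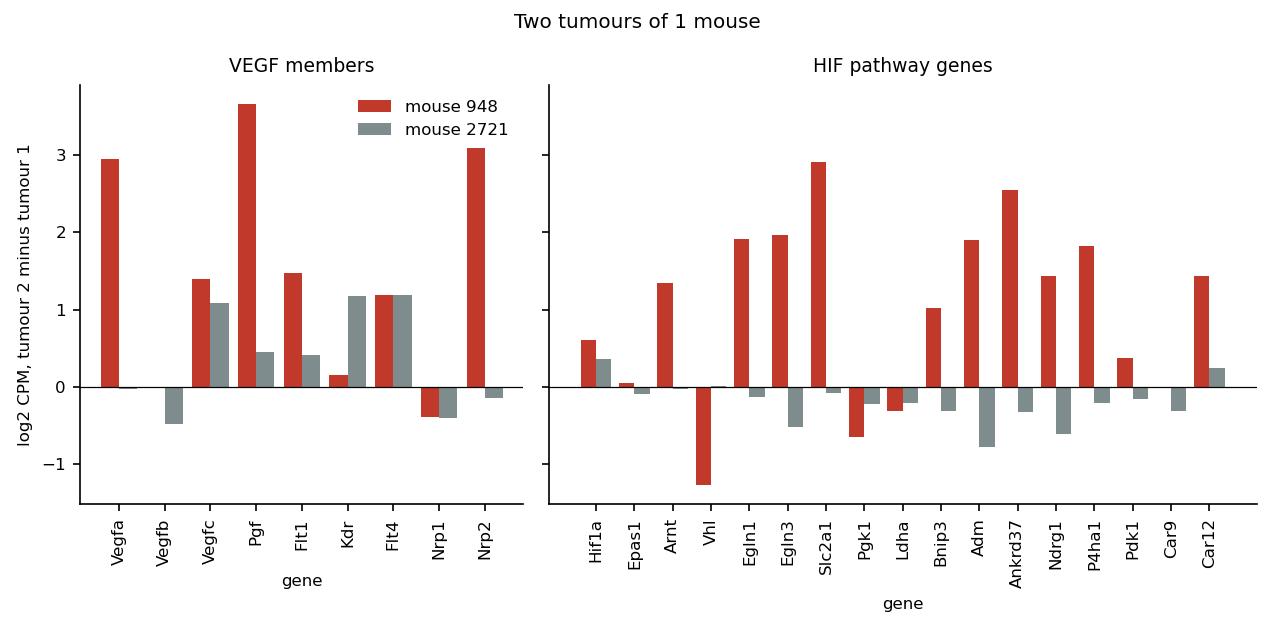
Log2 CPM of tumour 2 minus tumour 1 for the 9 VEGF genes (left) and 17 HIF pathway genes (right) in mouse 948 (red) and mouse 2721 (grey), 1 library a tumour. Vegfa differs by 2.95 in mouse 948 and by -0.03 in mouse 2721, and Slc2a1 by 2.91 and -0.08.

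Mice 1267 and 2721 allowed sarcoma and marrow of the same animal to be read together. Vegfa had 104 CPM in the sarcoma and 44.2 CPM in the marrow of mouse 1267, and 94.0 and 30.9 CPM in mouse 2721. Kdr had 4.50 and 3.90 CPM in the sarcomas and no count in either marrow, and Pgf and Flt4 likewise had none in either marrow. Nrp2 was higher in both sarcomas, at 16.6 against 2.83 CPM and 9.85 against 2.40 CPM. Flt1 was uneven, with 13.1 CPM against no count in mouse 1267 and 26.9 against 20.7 CPM in mouse 2721. With the mouse as a block no member passed edgeR's test, with adjusted p from 0.149 for Kdr to 1.

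The sarcoma of mouse 841 lay inside the range of the SMC3+/- sarcomas for 5 members and below it for 4, with no test passed. The share of all genes below that range was not counted, so whether 4 of 9 is unusual was not tested. Its 140.0 CPM of Vegfa, 21.3 CPM of Vegfb, 4.45 CPM of Vegfc, 3.72 CPM of Pgf and 10.6 CPM of Flt1 were within the values of those 4 mice. Kdr (3.36 CPM), Flt4 (1.18 CPM), Nrp1 (12.3 CPM) and Nrp2 (2.54 CPM) were under the lowest of them. The log2 difference was -3.09 ± 1.56 for Nrp1, -2.81 ± 1.55 for Nrp2, -2.76 ± 2.29 for Kdr and -1.31 ± 1.48 for Flt4, each with an edgeR adjusted p of 1. In this comparison of 1 mouse with 4, edgeR called 0 of 17762 genes (0%), with 236 at an unadjusted p under 0.05, and none of the 9 members was among those 236. DESeq2 called genes in both directions but 0 members, and with 1 mouse on one side its calls were not read further. The Vegfc to Flt4 ratio of 3.51 and the Vegfc to Nrp2 ratio of 3.04 lay above all 4 SMC3+/- sarcomas, from 49 Vegfc, 13 Flt4 and 28 Nrp2 counts. The blood endothelium list summed to 490 CPM there, of which Pecam1 made 240.6 CPM and Erg 55.8 CPM, genes that reached 125 and 69.7 CPM in marrow. Cdh5 had 22.5 CPM and Tie1 41.8 CPM, while Tek at 2.00 CPM and Cldn5 at 3.996 CPM lay near the low end of the SMC3+/- sarcomas, which had 1.77 to 41.5 and 2.18 to 58.2 CPM. The part of endothelial content in these receptor levels was not tested.

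Partners of the family outside the 9 genes were read from lists. Of 11 ligand processing and semaphorin or plexin genes tested, 5 were higher, 0 lower and 6 not called, with a median log2 difference of 4.16 against 0.07 over all genes tested and 1.79 over the 9 members. Figf, which encodes VEGF-D, another FLT4 ligand, rose by 7.10 ± 1.47 (edgeR adjusted p = 0.0115), with 38.9 CPM in 1268_1270 and 1.33, 2.04 and 5.27 CPM in mice 948, 1267 and 2721. The semaphorin genes Sema3c and Sema3f, whose products bind neuropilins, rose by 9.98 ± 1.49 (adjusted p = 0.00143) and 8.67 ± 1.36 (adjusted p = 0.00214), and Plxna4, a semaphorin receptor, by 6.49 ± 1.52 (adjusted p = 0.0228). All 4 peaked in sarcoma 1268_1270, at 235, 45.9 and 37.4 CPM for the last 3, and without it 1 of the 11 was called, Sema3f (edgeR adjusted p = 0.0435). With the mouse as a block 0 of the 11 were called, with an edgeR adjusted p of 0.0548 for Sema3c, 0.434 for Sema3f, 0.539 for Figf and 0.789 for Plxna4. Without marrows 737, 779 and 782 and tumour 1 of mouse 948, 2 of 12 genes tested were called, and Figf was not among them (edgeR adjusted p = 0.0616).

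The lists downstream of the receptors are set beside the 4.49% of all genes called higher. Of 20 signalling and trafficking genes 2 were higher and 0 lower, Ptprb, the endothelial phosphatase VE-PTP (8.15 ± 1.28, edgeR adjusted p = 0.00214), and Nos3, the endothelial nitric oxide synthase (5.61 ± 1.37, adjusted p = 0.0289). The list median was 0.11, against 0.07 over all genes, and 0 were called without sarcoma 1268_1270 and 1, Ptprb, with the mouse as a block. Of 18 VEGF-responsive endothelial genes 3 were higher, with a median of 2.11. They were Lama4, a vessel laminin (10.28 ± 1.37, adjusted p = 0.000913), Unc5b, a netrin receptor of tip cells (5.79 ± 1.20, adjusted p = 0.0118), and Adamts1, a matrix protease (5.12 ± 1.19, adjusted p = 0.0219), with Lama4 alone called without that sarcoma and with the block. Of 17 HIF pathway genes 3 were higher, with a median of 0.59: Bnip3, a mitophagy receptor (2.89 ± 0.66, adjusted p = 0.0202), Epas1, which encodes HIF-2α (5.76 ± 1.32, adjusted p = 0.0208), and Adm, the vasodilator adrenomedullin (5.71 ± 1.33, adjusted p = 0.0223). None of the 17 was called without sarcoma 1268_1270 or with the block.

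Markers of other cells moved between the tissues beside the VEGF genes. All 7 fibroblast genes were called higher, with Col3a1, a fibrillar collagen, at 648 ± 367 against 0.486 ± 0.713 CPM, as were 5 of 10 pericyte and smooth muscle genes, among them the pericyte gene Rgs5 (8.09 ± 1.19, edgeR adjusted p = 0.0014), 6 of 7 adipocyte genes and 5 of 7 skeletal muscle genes. Of 10 monocyte and macrophage genes 4 were higher, the complement genes C1qa, C1qb and C1qc and the mannose receptor Mrc1. Of 6 platelet genes Pf4 was higher. None of 10 pan-leukocyte and none of 10 neutrophil genes was called by edgeR. No gene of these lists was called lower. Without sarcoma 1268_1270 the genes called higher were 5 of 7 fibroblast, 2 of 10 pericyte, 4 of 7 adipocyte, 3 of 7 muscle, 2 of 10 monocyte and macrophage (C1qa and C1qc) and 0 of 6 platelet genes, with Rgs5 kept (6.11, edgeR adjusted p = 0.0319). With the mouse as a block they were 5, 1, 4, 1, 4 and 0 in that order, with Rgs5 not called (adjusted p = 0.306). Without marrows 737, 779 and 782 and tumour 1 of mouse 948, they were 7 of 7, 3 of 10, 3 of 6, 0 of 6, 3 of 10 and 0 of 6. Fibroblasts, macrophages and adipocytes are known sources of VEGF ligands, and the part of each in the ligand levels was not tested.

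Across the 14 samples of 1 mouse and tissue, the gene profiles most like each member were found by the mean absolute difference of centred log2 CPM. For Kdr these were Gpx8 and Egfr at 0.40 and Tek at 0.45, against a mean deviation of 2.74 of Kdr from its own mean. For Flt4 they were Cspg4 at 0.34, Vstm4 at 0.35 and Steap2 at 0.38, against 2.11. The nearest profile lay at 0.51 against 1.03 for Vegfa (Rasl11b, then Farp2 and Osbpl1a) and at 0.38 against 0.86 for Vegfb (Acot2, then Creld1 and Cyb5r3). It lay at 0.66 against 1.44 for Vegfc (Bcas1, then Hhat and Lzts2) and at 0.58 against 2.46 for Pgf (F8, then Cacnb3 and Ttc26). Nrp1 was nearest to Zeb2 at 0.46 against 1.07, then to Clock and Foxo1. Flt1 was nearest to Ccdc157 at 0.96 against 2.59, then to Bcl9l and Zfp629, and Nrp2 to Per3 at 0.84 against 1.77, then to Acaca and Noxo1. Among the members themselves Vegfa and Vegfb were closest, at 0.81, and Vegfc and Flt1 furthest apart, at 3.07. These distances were not scaled to the deviation of each gene from its own mean. That deviation was smallest for Vegfb (0.86) and Vegfa (1.03) and was 2.59 for Flt1.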

How the data were processed

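Per the labels' protocols, tumours went into Trizol on dissection, and marrow did so only after crushing of the bones, filtering and lysis of red cells, so handling cannot be told apart from tissue. Spike-in RNA was added and poly(A) RNA was selected. The authors deposited whole-number counts per gene symbol for 16 libraries, with 0 spike-in rows. Per the submitters' processing notes, STAR, DESeq and DESeq2 were used and mm9 was the genome build, with no role stated for any tool. Neither the counting tool nor its annotation or strand setting is stated, so reads of a gene and an antisense partner cannot be told apart.

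Libraries of 1 mouse and tissue were summed, giving 14 samples. Counts were filtered with filterByExpr (minimum count 10), scaled by TMM and compared with edgeR 4.0.16 under R 4.3.3 (glmQLFit with robust estimation, glmQLFTest, two-sided), with Benjamini-Hochberg adjusted p under 0.05 as the call over all genes. Libraries totalled 9797201 to 39197660 counts, and a count of 0 allows up to 3 counts. The SE is the log2 fold change over the square root of F and is approximate. Mouse 841 was assumed to vary like the other sarcomas. Levels per kb used merged exons from GENCODE mouse gene models of a newer build than mm9, matched by symbol, with 98.5% of symbols found. The script was tested on simulated data.

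The 9 members, the 14 gene lists and the tests were chosen with earlier results of these data known. Named genes are the members, in each list up to 4 called genes in order of adjusted p, and the 3 profiles nearest to each member with predicted genes left out. The rule also took the 2 highest genes of each list without a call, but those lists are given as counts alone. The mouse pairs samples, since the labels give mice 1267 and 2721 both tissues. Alternatives were DESeq2 1.42.0, limma-voom (limma 3.58.1), 4 scalings, 2 filters, other units, mouse blocks, fits without sets of libraries and without each mouse alone. The 4 low libraries are marrows 737, 779 and 782 and tumour 1 of mouse 948, a set taken from an earlier analysis that left in marrow 1267. Removal of marrow 1267 with them, and of marrow 919 together with sarcoma 1268_1270, was added after seeing the data.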

Additional observations from a re-analysis of the deposited data

Results flagged for a closer look

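Of 32 sets of values checked, 10 had 1 sample far from the rest of its group by Dixon's gap rule. Its chance rate of about 1 in 20 is for independent sets of normal values. These sets share samples and include levels with many zeros, so 10 of 32 cannot be held against that rate. In sarcoma 1268_1270, against the other 3 SMC3+/- sarcoma mice, these were Vegfb at 145 CPM, Vegfc at 6.01 CPM, Kdr at 78.1 CPM, Nrp1 at 282 CPM and the Vegfc to Flt4 log2 ratio of 1.76. That tumour also had 42300 CPM of adipocyte and 622 CPM of pan-leukocyte markers.

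Among the 9 marrows, mouse 919 stood apart with 116 CPM of Flt1 and 80.9 CPM of Nrp2. Marrow 1103 did so with 4.22 CPM of Vegfc, marrow 782 with 2.95 CPM of Pgf and marrow 779 with 1.01 CPM of Kdr, from 11 counts. Marrows 779 and 782 were low in long transcripts.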

How the results depend on the processing

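With 1 member called (Kdr), the number called was 3 with limma-voom, with or without a random effect for the mouse (Pgf, Kdr and Flt4), 2 with relative log expression size factors, without a count filter and with the first tumour of each mouse (Vegfb and Kdr), and 8 with pan-leukocyte scaling (all but Flt1). That scaling moved the median of all genes from 0.07 to 2.15 and that of the members to 5.13. With the mouse as replicate block 0 members were called, also with mice 1267 and 2721 only, and 0 without sarcoma 1268_1270 together with marrow 919 or with the 4 low libraries (marrows 737, 779 and 782 and tumour 1 of mouse 948). Leaving out 1 mouse gave 0 to 2, with 0 without sarcoma 1268_1270, Vegfa added without marrow 737 and Vegfb added without marrow 1267 or any other sarcoma mouse. Over the 32 alternatives with a value for it, Kdr ranged from 4.67 to 11.05, with adjusted p from 0.000303 to 0.885, and lost the call in 5. Sarcoma 1268_1270 was left out in 3 of these and the mouse was a block in 2. DESeq2 is not among the 32: it gave Kdr no adjusted p, and the 1 member it called was Vegfb.

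Vegfc turned to -0.72 without sarcoma 1268_1270, to -0.61 without the 4 low libraries as well and to -0.78 without marrow 919 as well. Flt1 turned to -0.24, to -0.73 and, without the 4 low libraries alone, to -0.37. Nrp2 turned to -0.21 and to -0.59. Without the 4 low libraries and marrow 1267, Flt1 was -0.63, Nrp2 -0.07 and Kdr 8.18 (adjusted p = 0.0377). Without marrow 919 Flt1 was 2.02 and Nrp2 2.69, and without marrow 1103 Vegfc was 1.73. The cause was not tested.

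Genes called higher (662) numbered 8976 with pan-leukocyte scaling, 1355 without a filter, 415 with a stricter one, 107 and 81 with the mouse as replicate block over all and over 2 mice, 1323 with the random effect, 300 without the 4 low libraries, 165 without these and marrow 1267, 62 without these and sarcoma 1268_1270, 82 without it and marrow 919, and 170 to 762 with 1 mouse left out, the 170 without sarcoma 1268_1270. Genes called lower (8) numbered 99 with DESeq2, 20 with limma-voom, 13 without a filter, 5 with a stricter one, 17 with tumour libraries as samples, 23 and 33 with the blocks, 63 with the random effect, 5 with no mouse in both tissues, 3 without the 4 low libraries, 1 without these and marrow 1267, 0 without these and sarcoma 1268_1270, 20 with mouse 841 added, 0 without sarcoma 1268_1270 and marrow 919, and 0 to 16 with 1 mouse left out. Of 38 called genes chosen from the lists, counting a gene once per list, the block took the call from 23, removal of sarcoma 1268_1270 from 20 and none reversed.

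The Vegfa to Nrp1 ratio of 2.31 moved to 1.19 with longest transcript lengths, and the other ratios moved by less than their SD. The comparison of mouse 841 gave 0 members under all 9 alternatives. Receptor counts in marrow, 22 in all for Kdr and 40 for Flt4, limit what could be read there.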
